A study of Brassica napus with 33 samples.

Results

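The small RNA (sRNA) clusters on chromosome A02 of Brassica napus were described in leaves and ovules of the inbred lines Express617 and G3D001 and of their hybrids. A cluster is a stretch of the genome from which sRNA reads arise together, and the members are all clusters that the count table places on A02 of the Express617 assembly. These were 4013 of 91060 clusters with a position, which is 4.407% of them. The first cluster started at position 5164 and the last ended at position 30106983. The clusters were 30 to 8657 bp long with a median of 686 bp, and they covered 12.85% of that span. The members were chosen by position alone, without any measured value. Whether a cluster lies in a gene, a repeat or between genes was not analysed here, and no cluster sequence is shown because no genome of this assembly was used.

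Oilseed rape is an allotetraploid whose A and C chromosomes come from a turnip-like and a cabbage-like ancestor, and A02 and C02 are homoeologous over much of their length. Most clusters in plants yield small interfering RNAs, which guide DNA methylation and the silencing of transposons, and a minority yield microRNAs, which act on the transcripts of genes. In developing seeds much of the small interfering RNA comes from the maternal copy of the genome or from maternal seed coat tissue.

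G3D001 is the paternal, semi-winter, semi-synthetic inbred line and Express617 is the maternal winter inbred line. F1 plants carry the genome of both lines and were selfed for ovules, whereas F0 ovules formed on Express617 mothers pollinated with G3D001. Leaves were collected from G3D001, F1 and Express617 plants with 6 unfolded leaves (BBCH16), and ovules from G3D001, F1, F0 and Express617 at OS15, which is 15 days past pollination, and at OS30, which is 30 days past it. Each stage and genotype had 3 libraries, 33 in total, with 12635700 to 27070031 counts on clusters per library. Ovules are mixtures of seed coat, endosperm and embryo, and a larger share of one tissue cannot be told apart from more sRNA per cell.

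Levels are given as CPM, the counts of a library scaled to a common total, on the log2(CPM + 0.5) scale relative to the mean of the 3 Express617 libraries of the stage. They were used where a cluster averaged at least 20 counts over the libraries of the stage and centred on the median of the 17 chromosomes other than A02 and C02. The replicates are described as biological. On this scale 0 is the level of Express617, and the level of a library is the median over the A02 clusters so kept, which numbered 708 in leaves, 716 at OS15 and 3758 at OS30. On C02, G3D001 ovule libraries of OS15 had levels of -0.91, -0.37 and -0.83, and those of OS30 -0.57, -0.34 and -0.87. Replicate 2 had the C02 level nearest to 0 and the lowest A02 level of the 3 in both ovule stages, and values without it are given below.

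Relative to the other chromosomes, A02 stood above Express617 in G3D001 at every stage. In leaves the 3 G3D001 libraries had levels of 0.56, 0.56 and 0.56 (mean 0.56 ± 0.003, SD, n = 3), against -0.02 to 0.02 in Express617. At OS15 they had levels of 0.41, 0.31 and 0.48 (0.40 ± 0.09), against -0.01 to 0.01 in Express617. At OS30 they had levels of 0.40, 0.27 and 0.48 (0.39 ± 0.11), against -0.01 to 0.01 in Express617. Without replicate 2 the means were 0.45 at OS15 and 0.44 at OS30. No G3D001 library overlapped with those of Express617 at any stage on this centred scale. Without centring the mean at OS30 was -1.17, below Express617.

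The F1 lay between both parents. Its libraries had levels of 0.33, 0.22 and 0.31 in leaves (0.29 ± 0.06, SD, n = 3), 0.22, 0.24 and 0.24 at OS15 (0.24 ± 0.01) and 0.36, 0.30 and 0.34 at OS30 (0.33 ± 0.03), all above every Express617 library. Without centring the F1 mean was 0.059 at OS15. In leaves and at OS15 every F1 library was below every G3D001 library, and at OS30 the F1 libraries lay within the range of G3D001. The F0 differed between the ovule stages. Its libraries had levels of 0.02, 0.03 and 0.0043 at OS15 (0.02 ± 0.01), which overlapped with Express617, and 0.18, 0.30 and 0.30 at OS30 (0.26 ± 0.06), which did not.

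**Figure D1:**
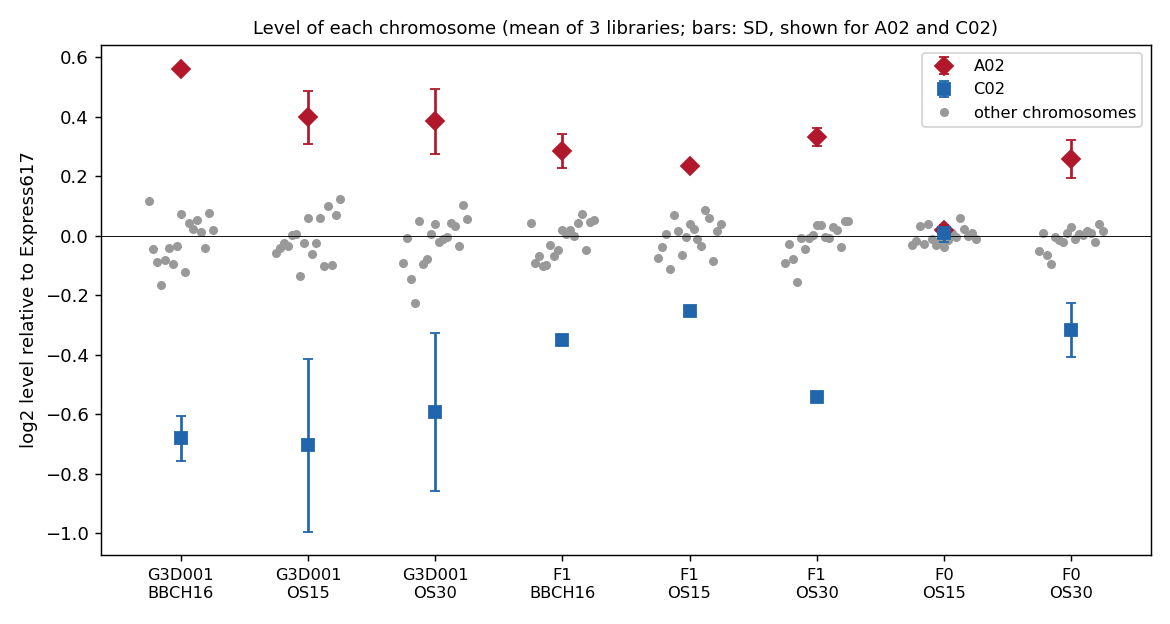
Level of each chromosome relative to Express617 (y axis, log2) for each genotype and stage (x axis), as the mean of 3 libraries, with A02 as diamonds, C02 as squares, the 17 other chromosomes as grey points and the SD as bars for A02 and C02. A02 is the highest of the 19 chromosomes in every column but F0 at OS15, where its level is 0.02.

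A02 ranked 1 of 19 chromosomes in G3D001 and in the F1 at all 3 stages and in the F0 at OS30, and 5 in the F0 at OS15. The 17 other chromosomes ranged from -0.17 to 0.12 in G3D001 leaves, from -0.13 to 0.12 in G3D001 at OS15 and from -0.23 to 0.10 in G3D001 at OS30. C02 moved the other way. It had means of -0.68 ± 0.08, -0.70 ± 0.29 and -0.59 ± 0.27 in G3D001 at BBCH16, OS15 and OS30, and of -0.35 ± 0.02, -0.25 ± 0.02 and -0.54 ± 0.01 in the F1. In the F0 it had 0.01 ± 0.03 at OS15 and -0.32 ± 0.09 at OS30. The authors report, citing an earlier study, that all of A02 is duplicated and all of C02 deleted in G3D001. For this reason they left both chromosomes out of their comparison of the subgenomes. The part of these copy differences, or of the C02 values, in the A02 result was not tested.

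The shift was spread over many clusters. In G3D001 leaves 73.6% of the A02 clusters lay above 0, against 48.6% on the 17 other chromosomes, and 26.8% lay at least 1 log2 unit above 0, against 7.01%. At OS15 66.6% of the A02 clusters of G3D001 lay above 0, against 49.3%, and at OS30 65.5%, against 49.9%. In the F1 the shares above 0 on A02 were 66.7%, 64.9% and 72.4% at BBCH16, OS15 and OS30, against 49.4%, 48.9% and 49.7% on the other chromosomes. In the F0 they were 52.5% at OS15, against 49.0%, and 72.1% at OS30, against 50.2%. The middle 50% of the A02 clusters of G3D001 spanned -0.03 to 1.03 in leaves, -0.27 to 1.12 at OS15 and -0.27 to 1.08 at OS30, so that individual clusters varied by more than the shift itself.

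To see where along the chromosome the difference lay, A02 was divided into bins of 1 Mb, and bins with at least 10 clusters were kept. There were 29 such bins at BBCH16, with 13 to 38 clusters, 30 at OS15, with 12 to 46 clusters, and 30 at OS30, with 68 to 193 clusters. A bin was counted as above Express617 where all 3 libraries of a genotype exceeded all 3 Express617 libraries. In leaves 25 of 29 bins were above Express617 in G3D001, against 17.0% of the bins of the other 18 chromosomes, and none was below. The highest bin was that from 3 to 4 Mb, with 1.09, 0.98 and 0.66 in the G3D001 libraries (0.91 ± 0.22). The lowest was that from 13 to 14 Mb, with -0.13, 0.01 and 0.09 (-0.01 ± 0.11), which overlapped with Express617. The other G3D001 bins that were not above were those from 0 to 1 Mb, 8 to 9 Mb and 14 to 15 Mb. From 15 to 29 Mb every bin was above Express617 in G3D001 leaves.

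In F1 leaves 20 of 29 bins were above Express617, against 20.3% on the other chromosomes, and none was below. The F1 bins that overlapped with Express617 started at 1, 5, 6, 8, 9, 13, 14, 18 and 26 Mb. The F1 had 0.46 ± 0.07 in the bin from 3 to 4 Mb and -0.02 ± 0.04 in the bin from 13 to 14 Mb. Of the bins kept in leaves, the first was that from 0 to 1 Mb, with 0.22 ± 0.26 in G3D001 and 0.25 ± 0.03 in the F1. The last was that from 28 to 29 Mb, with 0.44 ± 0.10 in G3D001 and 0.35 ± 0.12 in the F1. It is not the chromosome end, as the bin from 29 to 30 Mb had fewer than 10 clusters for a level. In the later test of single clusters, 73 clusters of that bin had a median log2 fold change of 0.0 in G3D001 leaves and 0.08 in F1 leaves.

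**Figure D2:**
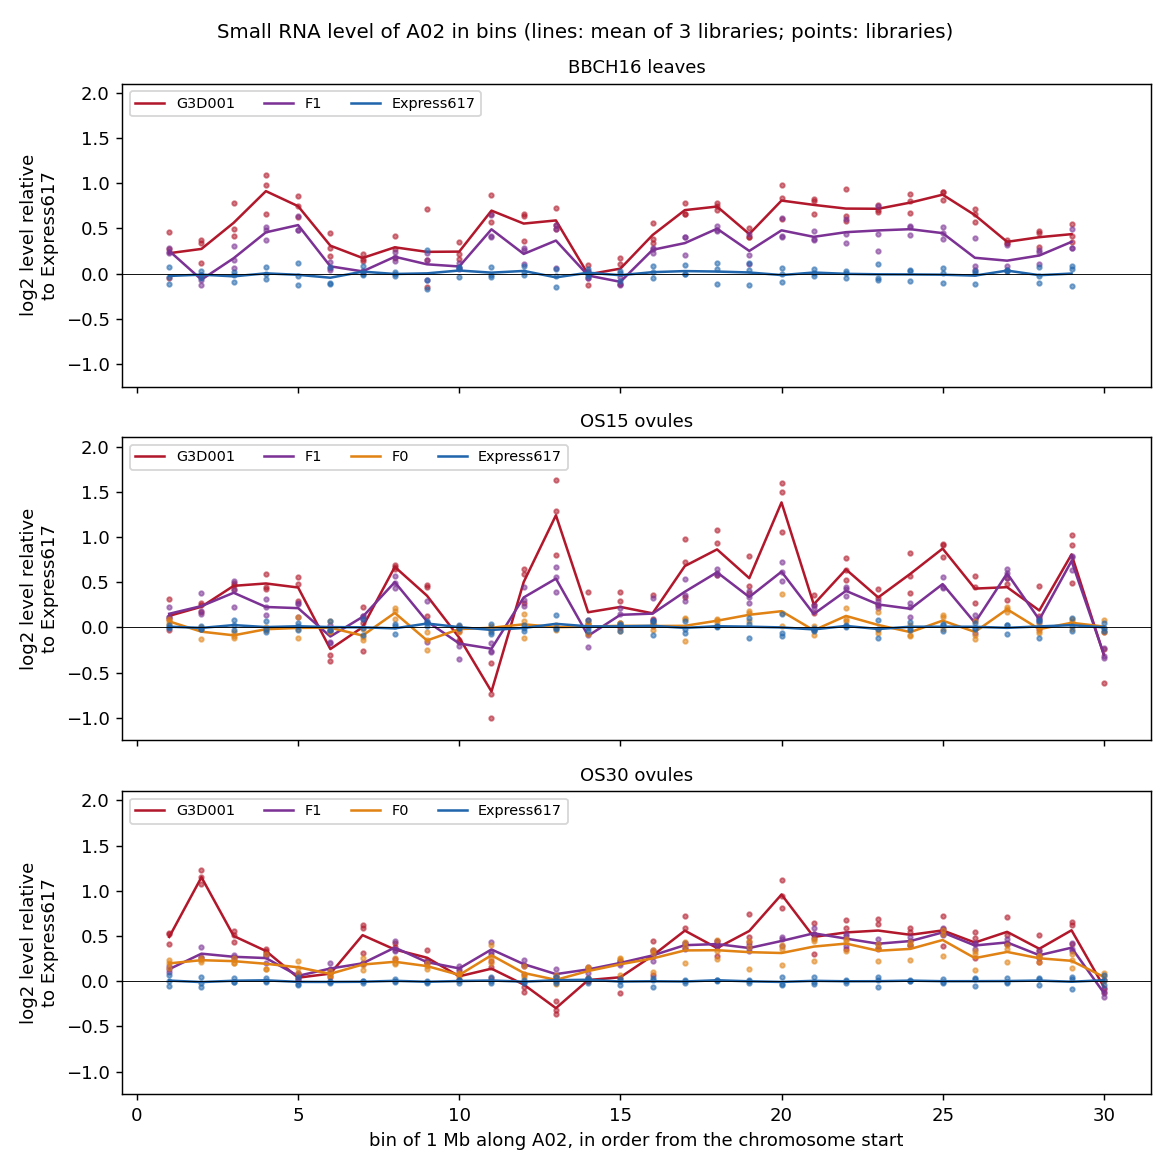
Level of A02 in bins of 1 Mb in order along the chromosome (x axis, bin number from 1) relative to Express617 (y axis, log2) in BBCH16 leaves, OS15 ovules and OS30 ovules, with lines for the mean of 3 libraries and points for libraries. G3D001 and the F1 lie above Express617 in most bins at each stage, with 25 and 20 of 29 bins in leaves, whereas the F0 does so in 5 of 30 bins at OS15 and 27 of 30 at OS30.

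At OS15 the profile of G3D001 was more uneven. In G3D001 20 of 30 bins were above Express617, against 23.6% on the other chromosomes, and 4 bins were below, against 25.8%. The highest bin was that from 19 to 20 Mb, with 1.60, 1.05 and 1.497 in the G3D001 libraries (1.38 ± 0.29). The lowest was that from 10 to 11 Mb, with -0.74, -1.003 and -0.39 (-0.71 ± 0.31). The other bins below Express617 in G3D001 were those from 5 to 6 Mb, with -0.24 ± 0.17, and from 9 to 10 Mb, with -0.11 ± 0.06. So was the last bin kept, from 29 to 30 Mb, with -0.30 ± 0.29. The bin from 30 to 31 Mb, at the chromosome end, had too few clusters for a level. In the later test of single clusters, its 9 clusters had a median log2 fold change of -1.54 in G3D001 at OS15 (0 higher, 2 lower). At OS30 this median was -1.28 (2 higher, 5 lower), and in leaves 0.09 (1 higher, 1 lower). The first bin, from 0 to 1 Mb, had 0.13 ± 0.18 in G3D001 at OS15 and overlapped with Express617.

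In the F1 at OS15 20 of 30 bins were above Express617, against 18.6% on the other chromosomes, and 2 were below, against 23.1%. Without centring 36.7% of the A02 bins were above. The bins below were those from 10 to 11 Mb, with -0.24 ± 0.05, and from 29 to 30 Mb, with -0.30 ± 0.06. The F1 had 0.62 ± 0.11 in the bin from 19 to 20 Mb. In the F0 at OS15 5 of 30 bins were above Express617, against 7.87% on the other chromosomes, and 2 were below, against 9.31%. The 5 bins started at 0, 7, 17, 21 and 26 Mb, and the largest F0 mean was 0.20 ± 0.02 in the bin from 26 to 27 Mb. The F0 had 0.18 ± 0.18 in the bin from 19 to 20 Mb and -0.0047 ± 0.02 in the bin from 10 to 11 Mb, and overlapped with Express617 in both. Of its bins, 26.7% were above Express617 without F0 replicate 2, against 16.7% with all libraries.

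At OS30 the hybrids were above Express617 over nearly the whole chromosome on the centred scale. In the F1 28 of 30 bins were above, against 21.9% on the other chromosomes, and in the F0 27 of 30, against 16.1%. The bins of the other chromosomes include 62 of C02, of which 1 was above in the F1 and 0 in the F0. Without centring 60% of the A02 bins were above in the F1. In G3D001 23 of 30 bins were above, against 30.0%, and 0% of the A02 bins were above without centring. The 7 remaining G3D001 bins started at 4, 10, 11, 12, 13, 14 and 29 Mb. The highest bin of G3D001 was that from 1 to 2 Mb, with 1.07, 1.23 and 1.15 (1.15 ± 0.08), where the F1 had 0.30 ± 0.07 and the F0 0.23 ± 0.02. The lowest was that from 12 to 13 Mb, with -0.32, -0.36 and -0.22 (-0.30 ± 0.07), the single G3D001 bin below Express617, where the F1 had 0.08 ± 0.05 and the F0 0.02 ± 0.05. From 15 to 29 Mb every bin was above Express617 in G3D001, the F1 and the F0. The bin from 0 to 1 Mb had 0.49 ± 0.07 in G3D001, 0.13 ± 0.03 in the F1 and 0.20 ± 0.04 in the F0. The bin from 29 to 30 Mb had -0.06 ± 0.07 in G3D001, -0.13 ± 0.04 in the F1 and 0.05 ± 0.05 in the F0, and was below Express617 in the F1.

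The bin profiles of the 3 stages resembled each other in part. Over the bins of A02 the G3D001 means at BBCH16 and OS15 had a Pearson's r of 0.42 (29 bins), those at BBCH16 and OS30 of 0.20 (29 bins) and those at OS15 and OS30 of 0.29 (30 bins). For the F1 these were 0.36, 0.44 and 0.53. The stages share no library, while the bins share their positions and many of their clusters. The bin from 12 to 13 Mb, singled out after its values were seen, had 0.59 ± 0.13 in G3D001 leaves, 1.24 ± 0.42 in G3D001 at OS15 and -0.30 ± 0.07 in G3D001 at OS30, over 19, 18 and 119 clusters. The difference between these stages was not tested.

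Single clusters were then tested with edgeR's quasi-likelihood test over all clusters of a trio, which holds a hybrid and both parents, with Benjamini-Hochberg adjustment and a threshold of 0.05. The comparisons of one stage share the Express617 libraries, so that their values are given side by side only. In leaves 718 of 3959 A02 clusters were higher in G3D001 than in Express617 (18.1%, against 6.02% of all clusters) and 282 were lower (7.12%, against 10.5%). At OS15 699 of 4008 were higher (17.4%, against 8.15%) and 328 were lower (8.18%, against 9.75%). At OS30 1781 of 4013 were higher (44.4%, against 30.9%) and 738 were lower (18.4%, against 28.8%). A02 had the largest share of higher clusters of the 19 chromosomes in each of these comparisons, while the 17 chromosomes other than C02 had 4.75% to 6.86% in leaves, 6.64% to 9.32% at OS15 and 25.7% to 34.8% at OS30. The median log2 fold change of A02 was 0.59, 0.50 and 0.55 at BBCH16, OS15 and OS30, and that of all clusters was -0.06, -0.01 and -0.01. With clusters at 0 counts in one line set to the bound that 3 counts allow, the A02 medians were 0.59, 0.50 and 0.55. With scaling to total counts in place of TMM factors the median of all clusters at OS30 moved to -2.02 and that of A02 to -1.46, so that 424 A02 clusters were higher and 2778 lower in G3D001 (13.2% of calls higher, against 70.7%). Relative to the median of all clusters, A02 was higher by 0.56 under both scalings.

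In the F1 263 A02 clusters were higher than in Express617 in leaves (6.64%, against 2.32% of all clusters) and 55 were lower (1.39%, against 2.05%). At OS15 316 were higher (7.88%, against 4.55%) and 60 were lower (1.5%, against 1.7%). At OS30 1109 were higher (27.6%, against 9.97%) and 213 were lower (5.31%, against 9.07%). The median log2 fold change of A02 in the F1 was 0.39, 0.30 and 0.39 at the 3 stages, and that of all clusters 0.07, 0.01 and 0.0031. With total-count scaling 97.2%, 65.8% and 72.7% of the F1 calls on A02 were higher, against 82.7%, 84.0% and 83.9%, while the median of all clusters moved to 0.65, -0.32 and -0.13. Several F1 counts rested on single libraries. In leaves the number higher was 170 without Express617 replicate 2, 163 without F1 replicate 2 and 147 without F1 replicate 3, and at OS30 it was 733 without Express617 replicate 2. The numbers lower in the F1 were 32 without F1 replicate 2 and 36 without F1 replicate 3 in leaves. At OS15 they were 35 to 37 without an Express617 library, 31 to 36 without an F1 library and 94 without G3D001 replicate 2, and at OS30 119 without Express617 replicate 2 and 122 to 141 without an F1 library.

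In the F0 at OS15 1 A02 cluster was higher than in Express617 (0.025%, against 0.0077% of all clusters) and 0 were lower by edgeR (against 0.0055%). At an unadjusted p under 0.05 170 of 4008 A02 clusters differed (4.24%, against 4.04% of all clusters), and DESeq2 called 1 higher and 0 lower. With the replicate number as a block, 1 was lower. Without a G3D001 library, 1, 3 and 1 clusters were lower for replicates 1, 2 and 3, and 2 were higher without replicate 2. At OS30 365 A02 clusters were higher in the F0 than in Express617 (9.10%, against 2.76% of all clusters) and 46 were lower (1.15%, against 1.82%). The F0 median log2 fold change of A02 was 0.01 at OS15 and 0.30 at OS30, and that of all clusters 0.0001 and 0.0085. The number higher at OS30 moved with the libraries used. It was 145, 137 and 168 without Express617 replicate 1, 2 or 3, 558, 154 and 157 without F0 replicate 1, 2 or 3, and 553 with all 12 libraries of the stage in the fit. The number lower was 8 to 9 without an Express617 library, 9 without F0 replicate 2, 13 without F0 replicate 3, 86 without G3D001 replicate 2 and 78 without G3D001 replicate 3.

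**Figure D3:**
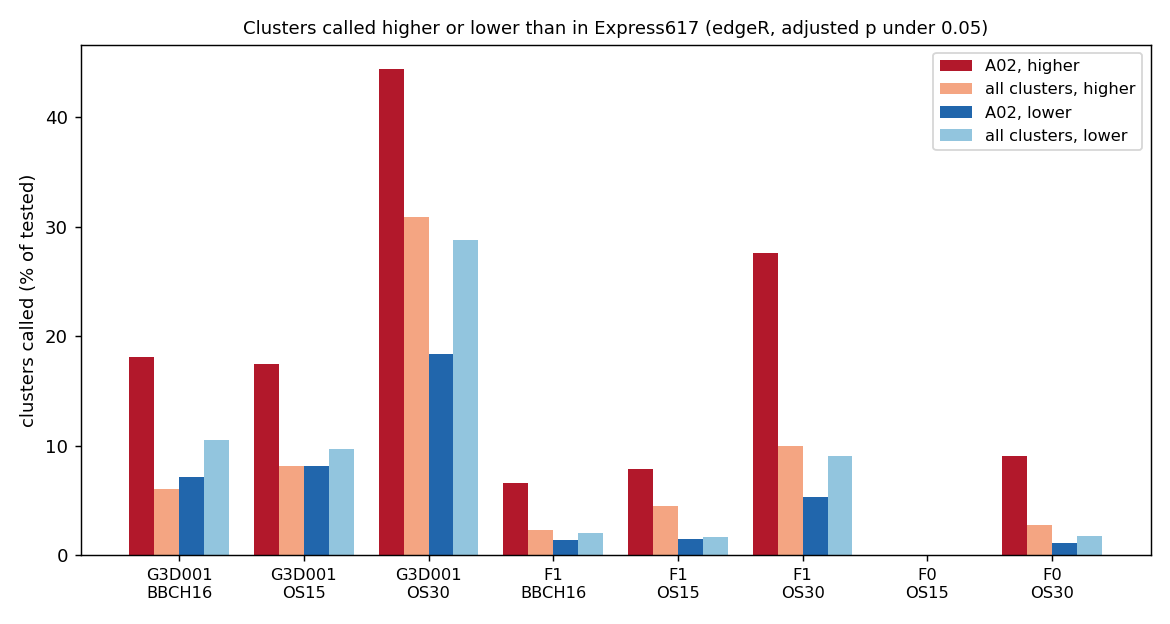
Clusters called higher (red) or lower (blue) than in Express617, in percent of the clusters tested (y axis), on A02 (dark) and over all clusters (light), by genotype and stage (x axis), with bars starting at 0. In G3D001 leaves 18.1% of the A02 clusters are higher, against 6.02% of all clusters, and at OS15 the F0 has 1 called A02 cluster.

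Called clusters were spread along the chromosome. In G3D001 more clusters were higher than lower in 25, 23 and 25 of 30 bins at BBCH16, OS15 and OS30, against 27.4%, 38.3% and 47.1% of the bins of the other 18 chromosomes. In the F1 this held in 29, 29 and 27 of 30 bins, against 46.8%, 73.8% and 51.7%, and in the F0 at OS30 in 30 of 30, against 52.8%. Over these 30 bins the share of clusters higher in G3D001 ranged from 6.85% to 30.5% in leaves, from 7.89% to 28.3% at OS15 and from 26.2% to 67.4% at OS30. The bin from 30 to 31 Mb, with 9 clusters tested, was not among them. It had 11.1%, 0% and 22.2% of its clusters higher in G3D001 at BBCH16, OS15 and OS30, and 11.1%, 22.2% and 55.6% lower.

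Many A02 clusters differed between the parents at more than one stage, in comparisons that share no library. Of those higher in G3D001, 289 were shared by BBCH16 and OS15 (40.3% of the BBCH16 list and 41.3% of the OS15 list), 438 by BBCH16 and OS30 (61.0% and 24.6%) and 557 by OS15 and OS30 (79.7% and 31.3%). Clusters higher at one stage and lower at the later stage numbered 7, 50 and 20 for these pairs. Of the clusters lower in G3D001, 154 were shared by BBCH16 and OS15 (54.6% and 47.0%), 193 by BBCH16 and OS30 (68.4% and 26.2%) and 204 by OS15 and OS30 (62.2% and 27.6%). Over all clusters the lists of higher clusters shared 38.8% and 28.3%, 58.7% and 11.3%, and 75.7% and 19.9% for these pairs, and those of lower clusters 46.0% and 48.8%, 65.6% and 23.5%, and 59.9% and 20.2%. In all 3 stages 233 A02 clusters were higher in G3D001 (5.81%, against 1.92% of all clusters) and 127 were lower (3.17%, against 3.73%). The number higher was 96 with total-count scaling and 145 with DESeq2, and the number lower was 51 with a filter of 10 counts in 3 libraries.

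The change of the difference between stages was tested with an interaction term in edgeR. Between OS15 and BBCH16 the difference between G3D001 and Express617 changed in 98 of 4009 A02 clusters (2.44%, against 2.25% of all clusters), larger at OS15 in 52 (against 1.3% of all clusters) and smaller in 46 (against 0.948%). Between OS30 and OS15 it changed in 853 of 4013 (21.3%, against 20.4%), larger at OS30 in 586 (against 14.2% of all clusters) and smaller in 267 (against 6.17%). Both shares were near those of all clusters. With total-count scaling 145 were larger and 2112 smaller at OS30.

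By length, the shift appeared in clusters over 100 bp at each stage. In G3D001 leaves clusters over 100 and up to 1000 bp had a median of 0.57 ± 0.02, those over 1000 and up to 3000 bp 0.51 ± 0.02 and those over 3000 bp 0.89 ± 0.12 (446, 207 and 39 clusters), against 0.02, -0.04 and 0.03 on the 17 other chromosomes. At OS15 these classes had 0.37 ± 0.13, 0.43 ± 0.06 and 0.75 ± 0.17 in G3D001, against 0.01, -0.02 and 0.06 on the other chromosomes. At OS30 they had 0.28 ± 0.08, 0.57 ± 0.15 and 0.55 ± 0.17, against -0.02, 0.06 and -0.20. Clusters up to 100 bp, of which there were 16, 11 and 70 at the 3 stages, had 0.05 ± 0.13, -0.33 ± 0.33 and 0.65 ± 0.17 in G3D001, against -0.17, -0.08 and 0.20 on the other chromosomes. In the F1 they had -0.21 ± 0.07, 0.02 ± 0.02 and 0.32 ± 0.05, against -0.26, 0.12 and -0.0022. In the F1 clusters over 3000 bp had 0.47 ± 0.08 in leaves, 0.48 ± 0.10 at OS15 and 0.66 ± 0.05 at OS30, against 0.04, 0.03 and 0.20. Clusters with a mean over 200 counts had 0.18 ± 0.11 in G3D001 leaves and -0.11 ± 0.08 in F1 leaves (54 clusters), against -0.24 and -0.34 on the other chromosomes. The same class had 0.51 ± 0.08 in the F1 at OS15 (134 clusters) and 0.50 ± 0.03 at OS30 (399 clusters), against 0.13 and 0.06. In G3D001 it had 0.41 ± 0.05 and 0.38 ± 0.07 at these stages, below the F1 means, against -0.01 and -0.17 on the other chromosomes.

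The share of all counts that fell on A02 was also larger in G3D001 and the F1. In leaves it was 1.38% ± 0.07 in G3D001 and 1.33% ± 0.05 in the F1, against 0.710% ± 0.010 in Express617 (SD, n = 3). At OS15 it was 8.47% ± 0.90 in G3D001, 6.72% ± 0.10 in the F1 and 5.13% ± 0.18 in the F0, against 5.15% ± 0.28 in Express617. At OS30 it was 8.65% ± 1.03 in G3D001, 6.12% ± 0.16 in the F1 and 4.99% ± 0.24 in the F0, against 4.39% ± 0.04 in Express617. Added to the share on C02, the totals at OS15 were 13.4% ± 0.76 in G3D001, 13.2% ± 0.18 in the F1 and 13.2% ± 0.09 in the F0, against 13.5% ± 0.09 in Express617. The G3D001 libraries, with 12.75% to 14.21%, lay on both sides of those of Express617, with 13.44% to 13.62%. Every F1 library (13.05% to 13.38%) and F0 library (13.13% to 13.29%) was below every Express617 library. At OS30 these totals were 13.1% ± 0.10 in G3D001, 11.6% ± 0.17 in the F1 and 11.2% ± 0.23 in the F0, against 11.1% ± 0.08 in Express617. The 10 largest A02 clusters of a library held 64.2% ± 1.5 of the A02 counts in G3D001 leaves, against 55.5% ± 2.4 in Express617, and 52.8% ± 0.28 in G3D001 at OS30, against 39.8% ± 0.94.

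Among single clusters, Cluster_4688 (A02:12509688-12514967, 5280 bp) had the smallest adjusted p of the higher clusters in all 8 comparisons of G3D001, the F1 or the F0 with Express617. Values of single clusters are CPM scaled with the TMM factors of the trio. In leaves it had 2759, 2312 and 2386 CPM in G3D001 and 1273, 1223 and 1100 CPM in the F1, against 1.11, 0.92 and 0.25 CPM in Express617. The log2 fold change was 11.63 ± 0.32 (SE) in G3D001 and 10.58 ± 0.31 in the F1, with edgeR adjusted p of 3.11e-38 and 1.08e-36. At OS15 it had 1023, 757 and 1018 CPM in G3D001, 813, 706 and 755 CPM in the F1 and 6.18, 4.59 and 5.75 CPM in the F0, against 0.41, 0.48 and 0.31 CPM in Express617. It was the 1 A02 cluster called in the F0 at OS15, with a log2 fold change of 3.68 ± 0.25 and an edgeR adjusted p of 2.00e-10. At OS30 it had 5732, 4662 and 6315 CPM in G3D001, 1122, 1046 and 1285 CPM in the F1 and 505, 718 and 760 CPM in the F0, against 3.75, 2.73 and 2.69 CPM in Express617. The F0 thus stood far below the F1 at OS15 and less far below it at OS30, where every F0 library was still below every F1 library. F0 and F1 values were scaled in different trios and were not tested against each other. In each stage the libraries of these genotypes did not overlap with Express617. This cluster also had the largest minimum fold change of the 233 clusters that were higher in G3D001 in all 3 stages.

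Other clusters were high in G3D001 and the F1 but near Express617 in the F0. Cluster_3580 (A02:3549412-3550159, 748 bp) had 360, 265 and 490 CPM in G3D001 and 250, 230 and 229 CPM in the F1 at OS15, and 0, 0 and 1 counts in the F0, against 1, 1 and 0 counts in Express617. The summed counts gave a ratio of G3D001 to Express617 of 9468 (95% exact interval 2621 to 78183, counting error only). At OS30 it had 1612, 1470 and 2217 CPM in G3D001 and 92.3, 85.9 and 144 CPM in the F1, and 3, 1 and 1 counts in the F0, against 1, 0 and 0 counts in Express617. In leaves it had no count in any library, so that the differences were confined to the ovule libraries. Cluster_4095 (A02:7998729-7999272, 544 bp) had 524, 385 and 522 CPM in G3D001, 368, 343 and 320 CPM in the F1 and 0.95, 0.91 and 1.58 CPM in the F0 at OS15, against 1.17, 0.82 and 0.88 CPM in Express617. Its log2 fold change at OS15 was 8.94 ± 0.28 in G3D001 and 0.16 ± 0.27 in the F0 (edgeR adjusted p of 5.54e-24 and 0.999). At OS30 it had 1357, 928 and 1605 CPM in G3D001, 140, 137 and 174 CPM in the F1 and 2.90, 3.06 and 3.67 CPM in the F0, against 2.90, 3.21 and 3.27 CPM in Express617. Cluster_6182 (A02:22521042-22522281, 1240 bp) had 4000, 3597 and 4482 CPM in G3D001, 408, 419 and 507 CPM in the F1 and 36.5, 42.8 and 41.0 CPM in the F0 at OS30, against 35.7, 40.9 and 43.9 CPM in Express617, with a log2 fold change of 6.65 ± 0.22 in G3D001 (edgeR adjusted p of 1.48e-11). The fold changes of G3D001 at OS30 depend on the scaling, and for this cluster it was 4.63 with total-count scaling.

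Cluster_4274 and Cluster_3633 were among the 3 with the smallest adjusted p of the clusters higher in G3D001 in leaves. Cluster_4274 (A02:9366388-9368149, 1762 bp) had 64.6, 37.3 and 51.2 CPM in G3D001 and 38.3, 37.3 and 24.3 CPM in the F1, against 0.52, 0.31 and 0 CPM in Express617. Its log2 fold change in leaves was 7.45 ± 0.41 in G3D001 (edgeR adjusted p of 6.90e-23), and 8.14 without Express617 replicate 1. Cluster_3633 (A02:3949614-3950004, 391 bp) had 18.3, 15.3 and 17.7 CPM in G3D001 and 10.9, 5.02 and 7.52 CPM in the F1, against 0, 0.06 and 0.08 CPM in Express617. Both clusters were higher in the F0 at OS30 too, Cluster_4274 with 4.98, 6.21 and 4.58 CPM, against 1.42, 1.61 and 1.46 CPM in Express617, and Cluster_3633 with 4.16, 3.46 and 3.43 CPM, against 0.14, 0.07 and 0.03 CPM. Their edgeR adjusted p in the F0 at OS30 were 0.000214 and 1.53e-06.

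**Figure D4:**
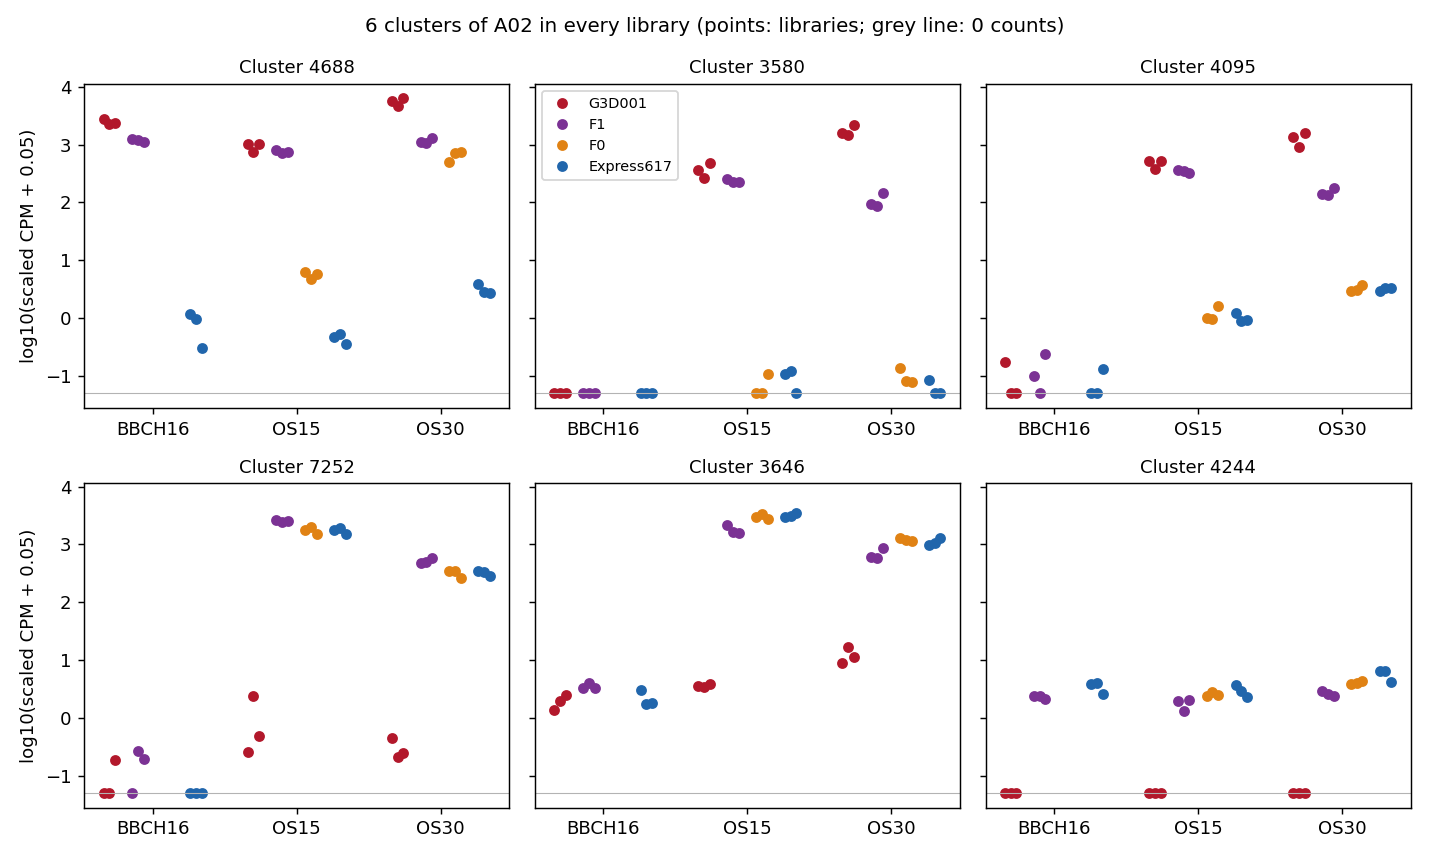
Level of 6 A02 clusters in every library (y axis, log10 of scaled CPM + 0.05) by stage (x axis) and genotype (colour), with the grey line at 0 counts. Cluster_4688, Cluster_3580 and Cluster_4095 are high in G3D001 and the F1 in ovules, and in Cluster_7252, Cluster_3646 and Cluster_4244 the ovule libraries of G3D001 lie below those of every other genotype.

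Other clusters were lower in G3D001. Cluster_7252 (A02:30043707-30044278, 572 bp) had 0.21, 2.36 and 0.43 CPM in G3D001 at OS15 and 2682, 2439 and 2507 CPM in the F1 and 1752, 2022 and 1510 CPM in the F0, against 1782, 1920 and 1513 CPM in Express617. The log2 fold change at OS15 was -10.78 ± 0.48 in G3D001, 0.55 ± 0.31 in the F1 and -0.08 ± 0.34 in the F0, with edgeR adjusted p of 2.17e-19, 0.415 and 0.999. Replicate 2 held most of the G3D001 counts, and without it the log2 fold change in G3D001 was -12.41. At OS30 it had 0.40, 0.16 and 0.20 CPM in G3D001, 483, 491 and 586 CPM in the F1 and 349, 340 and 263 CPM in the F0, against 352, 329 and 283 CPM in Express617. In leaves it had at most 4 counts in any library.

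Cluster_3646 (A02:4072500-4072757, 258 bp) had 3.46, 3.42 and 3.84 CPM in G3D001 at OS15, 2132, 1620 and 1589 CPM in the F1 and 3006, 3369 and 2767 CPM in the F0, against 2984, 3109 and 3552 CPM in Express617. The log2 fold change at OS15 was -9.81 ± 0.22 in G3D001 and -0.85 ± 0.15 in the F1 (edgeR adjusted p of 4.11e-27 and 0.000137). In leaves the libraries of both lines overlapped, with 1.302, 1.90 and 2.41 CPM in G3D001, against 2.95, 1.66 and 1.74 CPM in Express617. Cluster_6907 (A02:27252256-27252932, 677 bp) had 0.05, 0.25 and 0.06 CPM in G3D001 at OS15, 24.4, 35.3 and 20.3 CPM in the F1 and 77.4, 95.5 and 79.5 CPM in the F0, against 62.8, 92.6 and 69.7 CPM in Express617. It had no count in leaves.

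In leaves the clusters lower in G3D001 with the smallest adjusted p were Cluster_4030, Cluster_3820 and Cluster_3794. Cluster_4030 (A02:7475681-7475912, 232 bp) had 0 counts in the 3 G3D001 libraries and 6.88, 6.20 and 4.73 CPM in the F1, against 14.2, 17.0 and 13.0 CPM in Express617, and was at least 220-fold lower in G3D001 against a floor of 3 counts over the group. Cluster_3820 (A02:5715133-5716251, 1119 bp) had 7.69, 5.10 and 8.16 CPM in G3D001 and 90.1, 43.9 and 43.0 CPM in the F1, against 322, 147 and 124 CPM in Express617. Cluster_3794 (A02:5486280-5488218, 1939 bp) had 0.06, 0.38 and 0.27 CPM in G3D001 and 8.24, 8.09 and 6.99 CPM in the F1, against 14.0, 12.1 and 12.9 CPM in Express617. Cluster_4244 (A02:9169548-9169771, 224 bp) was at 0 counts in all 9 G3D001 libraries. Against the same floor it was at least 52.2-fold, 49.5-fold and 49.3-fold lower in G3D001 at BBCH16, OS15 and OS30, and Express617 had 2.57 to 4.01, 2.23 to 3.64 and 4.15 to 6.43 CPM.

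Other clusters were named for a fall in the hybrids, and these were lower in G3D001 too. Cluster_4179 (A02:8706639-8707196, 558 bp) had 0.25, 0.23 and 0.33 CPM in G3D001 and 0.15, 0 and 0.14 CPM in the F1 in leaves, against 4.14, 6.29 and 5.23 CPM in Express617. At OS15 it had 0.05, 0.56 and 0.24 CPM in G3D001, 0, 0.33 and 0 CPM in the F1 and 3.27, 2.72 and 2.99 CPM in the F0, against 2.88, 3.50 and 3.57 CPM in Express617. Cluster_3525 (A02:2966052-2966190, 139 bp) had 0.36, 0.96 and 0.35 CPM in the F1 and 2.17, 1.01 and 1.301 CPM in the F0 at OS30, against 6.47, 6.46 and 6.81 CPM in Express617. In G3D001 it had 1, 0 and 0 counts at OS30, so that the hybrids lay between both parents. Its log2 fold change at OS30 was -3.56 ± 0.30 in the F1 and -2.16 ± 0.28 in the F0 (edgeR adjusted p of 8.07e-07 and 0.000381), and -4.18 in the F1 without F1 replicate 2.

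Clusters were also named for a high mean CPM over the libraries of a stage, taken before TMM scaling. By this measure Cluster_5630 (A02:18723968-18732624, 8657 bp), the longest cluster of A02, ranked first in leaves and at OS30. In leaves it had 4759, 4370 and 4378 CPM in G3D001 and 4020, 3880 and 3446 CPM in the F1, against 2695, 2364 and 2680 CPM in Express617, with a log2 fold change of 0.80 ± 0.15 in G3D001 (edgeR adjusted p of 5.39e-05). At OS30 it had 10140, 7659 and 11610 CPM in G3D001, 3708, 3580 and 4284 CPM in the F1 and 2662, 2964 and 3164 CPM in the F0, against 1832, 1766 and 2060 CPM in Express617. Its log2 fold change in G3D001 at OS30 was 2.38 ± 0.18 and 0.36 with total-count scaling. At OS15 the 2 highest by this measure were Cluster_4015 (A02:7413453-7414461, 1009 bp) and Cluster_3310 (A02:816782-818195, 1414 bp). Cluster_4015 had 5034, 4223 and 5080 CPM in G3D001, 5169, 5178 and 5036 CPM in the F1 and 2460, 2842 and 2458 CPM in the F0, against 2074, 2478 and 2032 CPM in Express617, with a log2 fold change of 1.12 ± 0.13 in G3D001 (edgeR adjusted p of 3.03e-08). Cluster_3310 had 3216, 3615 and 3348 CPM in G3D001 at OS15, against 2437, 3062 and 2645 CPM in Express617, and its log2 fold change of 0.32 ± 0.13 did not pass (edgeR adjusted p of 0.099). Cluster_3345 (A02:1136676-1139418, 2743 bp) ranked second by this measure at OS30, where after TMM scaling it had 15780, 13620 and 15190 CPM in G3D001, 2092, 2127 and 2566 CPM in the F1 and 1248, 1339 and 1189 CPM in the F0, against 1209, 1148 and 1048 CPM in Express617. It lay in the bin from 1 to 2 Mb, the highest of G3D001 at OS30.

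Clusters with reads in one parent only averaged at least 20 counts in one line and had at most 1 count in each library of the other. In leaves 8 of 778 A02 clusters had reads in G3D001 only (1.03%, against 0.915% of all clusters) and 15 of 465 in Express617 only (3.23%, against 3.31%). At OS15 20 of 900 had reads in G3D001 only (2.22%, against 2.08%) and 22 of 599 in Express617 only (3.67%, against 2.29%). At OS30 10 of 1968 had reads in G3D001 only (0.508%, against 0.567%) and 58 of 3339 in Express617 only (1.74%, against 1.29%). These cut-offs were on counts without scaling. At OS30 the median count of an A02 cluster was 22, 12 and 24 in the G3D001 libraries, against 43, 45 and 46 in Express617. The numbers of both lines at OS30 are therefore not directly comparable. The shares on A02 were near those of all clusters, apart from Express617 at OS15 and OS30, where they were larger. The hybrids were not used to choose these clusters. At OS15 11 of the 20 clusters of G3D001 had a mean of at least 20 counts in the F1 and 0 of 20 in the F0, with medians of 73.5 and 2.5 summed counts. At OS30 7 of the 10 did so in the F1 and 3 of 10 in the F0. Of the clusters with reads in Express617 only, 7 of 22 in the F1 and 17 of 22 in the F0 had a mean of at least 20 counts at OS15, and 56 of 58 in the F1 and 56 of 58 in the F0 at OS30.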

How the data were processed

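Small RNA libraries of 11 groups of genotype and stage, 3 replicates each, were analysed. The authors removed reads under 18 bp with seqtk, aligned the rest to the Express617 assembly with ShortStack and deposited raw counts per sRNA cluster. Reads that match more than one locus were placed by the aligner, so counts of near-identical clusters, on A02 and C02 for example, are uncertain. Libraries held 12635700 to 27070031 counts. The 10201 entries without a genome position (2.33% to 10.1% of counts) were left out. Replicates differed by more than sampling noise (chi-square divided by its degrees of freedom, 3.16 to 70.3 for the 33 pairs), and all were kept.

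Counts were fitted with edgeR 4.0.16 (quasi-likelihood, TMM factors, R 4.3.3) in trios of 9 libraries, over all clusters with at least 1 count in the trio, with Benjamini-Hochberg adjustment over all of them. G3D001 and F1 values came from the F1 trio and F0 values from the F0 trio. Changes between stages were tested with an interaction over 12 libraries of the parents. Levels used log2(CPM + 0.5), as described beside the first level, and were given without a test. The fits and levels were also run on simulated data. The counts simulated for the levels varied by sampling noise only, which is less than the replicates differed here. Intervals at 95% and floors of 3 counts cover counting error only.

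For each stage the 3 A02 clusters higher and the 3 lower in G3D001 with the smallest adjusted p were named, and 1 in each direction per hybrid comparison. These averaged at least 20 counts over the trio, and their libraries did not overlap with Express617. Without these conditions, the 2 with the highest mean CPM of a stage were added. So was, of those called in all 3 stages, the 1 in each direction with the largest minimum fold change. Named bins were the highest and lowest of G3D001 and the first and last bins kept. Members, lists and rules were chosen with earlier results of these data known.

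Replicate numbers are shared between groups in the labels. Deviations from the group means correlated above 0.1 for every number between G3D001 and Express617 at BBCH16 (0.597, 0.299 and 0.127). They did so too between F0 and Express617 at OS15 (0.283, 0.128 and 0.202) and OS30 (0.109, 0.115 and 0.174). Over all 45 pairings the correlations ranged from -0.175 to 0.597, with 17 above 0.1. The labels give the numbers only, and whether they pair samples was not tested. Alternatives were RLE factors, total-count scaling, a filter of 10 counts in 3 libraries, DESeq2 1.42.0, a replicate block, all 12 libraries of a stage, leaving out each replicate, and other settings of the levels. The overlap between stages was recomputed under these alternatives, which was chosen after seeing the data.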

Additional observations from a re-analysis of the deposited data

Results flagged for a closer look

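For 8 named clusters the difference between G3D001 and Express617 differed between stages by the interaction term in edgeR (adjusted p under 0.05), given here as the later stage minus the earlier stage on the log2 scale. Between BBCH16 and OS15 it differed by -9.67 ± 0.51 (SE) for Cluster_3646 and by -13.38 ± 2.505 for Cluster_7252, which had at most 2 counts in a parental leaf library, so that the second value rests on leaf libraries near 0. Between OS15 and OS30 it differed by 4.53 ± 0.25 for Cluster_6182, 4.40 ± 0.20 for Cluster_4015, 3.50 ± 0.25 for Cluster_3310, 3.16 ± 0.28 for Cluster_3646, 2.59 ± 0.21 for Cluster_3345, 2.36 ± 0.35 for Cluster_3820 and 1.51 ± 0.26 for Cluster_5630. Each of these 7 values was positive, in a comparison in which total-count scaling moved the median of all clusters to -2.04.

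Cluster_4015 had 11680, 11570 and 12600 scaled CPM in G3D001 at OS30, against 229, 255 and 225 CPM in Express617. At OS15 it had 5034, 4223 and 5080 CPM in G3D001, against 2074, 2478 and 2032 CPM in Express617. Cluster_3310 had 13450, 20150 and 11820 CPM in G3D001 and 972 ± 107 CPM in the F0 (SD, n = 3) at OS30, against 1012, 975 and 914 CPM in Express617.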

How the results depend on the processing

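Of 509 alternative values of the results over A02, 399 kept their direction and their size or side of the threshold, 107 moved and 3 changed sign. The causes were not tested. Of 515 alternative values of the 35 results of named clusters, 513 kept their call and 2 gained one, both of Cluster_3310 in G3D001 at OS15 (0.39 with total-count scaling and 0.42 without Express617 replicate 2). Sizes moved in G3D001 at OS30, where TMM factors were 0.38 to 0.43, against 1.61 to 1.67 in Express617. Total-count scaling there gave 8.82 in place of 10.83 for Cluster_4688 and 1.69 in place of 3.71 for Cluster_3345. For the lower Cluster_3646 it gave -8.56 in place of -6.52, a larger fall.

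Total-count scaling gave 424 higher and 2778 lower clusters in G3D001 at OS30, 915 higher and 26 lower in the F1 at BBCH16, 113 lower in the F1 at OS15, 2257 that changed between OS15 and OS30, and 96 higher in all 3 stages. The filter of 10 counts gave 179 and 208 lower in G3D001 at BBCH16 and OS15, and 51 lower in all 3 stages. DESeq2 gave 152 higher in the F1 at BBCH16, 86 lower in the F0 at OS30 and 145 higher in all 3 stages. All 12 libraries of the stage gave 1 lower in the F0 at OS15, and 553 higher and 88 lower in the F0 at OS30. The replicate block gave 1 lower in the F0 at OS15 and moved no other count by over 1.5 times. With this block 749 were higher and 293 lower in G3D001 at BBCH16, 711 and 332 at OS15, and 1733 and 714 at OS30. The F1 had 315 and 72, 334 and 67, and 996 and 174, and the F0 had 1 and 1 at OS15 and 305 and 33 at OS30. Interactions numbered 116 and 845 with the block. Deviations correlated above 0.1 for every number between G3D001 and Express617 in leaves and between F0 and Express617 in ovules. Whether samples are paired by these numbers was not tested.

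The level of A02 without centring was 0.76 in G3D001 at BBCH16 and -1.17 at OS30, 0.77, 0.059 and 0.24 in the F1 at BBCH16, OS15 and OS30, and -0.0265 in the F0 at OS15. The bins above Express617 were then 0% in G3D001 at OS30, 36.7% and 60% in the F1 at OS15 and OS30, and 0% in the F0 at OS15. Summed CPM in place of the median gave levels of 1.07, 0.69 and 0.99 in G3D001, 0.94, 0.36 and 0.49 in the F1 at BBCH16, OS15 and OS30, and -0.0156 and 0.19 in the F0 at OS15 and OS30, with 50% of bins above in G3D001 at OS30 and 10% in the F0 at OS15. TMM-scaled CPM without centring gave 0.58 in G3D001 at BBCH16 and 0.34 in the F1 at OS15. A pseudocount of 0.1 gave 0.69 and 0.51 in G3D001 at BBCH16 and OS30, and 0.39, 0.28 and 0.38 in the F1 at BBCH16, OS15 and OS30. A minimum mean count of 10 gave 0.44 in G3D001 and 0.23 in the F1 at BBCH16 and 0.22 in the F1 at OS15. A minimum of 50 gave 0.66 in G3D001, with 50% of bins above, and 0.38 in the F1 at BBCH16, 0.30 in the F1 at OS15 and 0.38 at OS30. Bins of 2 Mb gave 6.67% above in the F0 at OS15.

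Without the 10 largest clusters of each library the share of counts on A02 was 4.82% in G3D001, 4.12% in the F1 and 2.32% in Express617 at BBCH16, 7.72% in the F1, 5.91% in the F0 and 6.04% in Express617 at OS15, and 9.70% in G3D001, 6.84% in the F1, 5.81% in the F0 and 5.02% in Express617 at OS30. Clusters with reads in one parent only, at a mean of at least 50 counts, numbered 3, 10 and 5 for G3D001 at BBCH16, OS15 and OS30 and 2 and 6 for Express617 at BBCH16 and OS15. With at most 3 counts in the other parent they numbered 21, 42 and 26 for G3D001 and 23 and 144 for Express617 at BBCH16 and OS30.

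Leaving out 1 library gave 147 to 283 higher and 32 to 67 lower in the F1 at BBCH16, 31 to 94 lower in the F1 at OS15, 733 to 1386 higher and 119 to 295 lower in the F1 at OS30, 1 to 2 higher and 0 to 3 lower in the F0 at OS15, and 137 to 558 higher and 8 to 86 lower in the F0 at OS30. The level was 0.55 to 0.56 in G3D001 at BBCH16 and 0.0021 to 0.028 in the F0 at OS15, with 13.3% to 26.7% of F0 bins above. With 3 libraries a group, clusters with few counts in leaves and at OS15 limit what could be called.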

Other observations

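The assembly holds 1 scaffold assigned to A02, whose 128 clusters were not counted as members. It took 0.505% ± 0.005 of the counts in G3D001 leaves and 0.580% ± 0.025 in F1 leaves, against 0.4995% ± 0.059 in Express617 leaves (SD, n = 3). At OS30 it took 0.088% ± 0.015 in G3D001, 0.133% ± 0.009 in the F1 and 0.135% ± 0.018 in the F0, against 0.120% ± 0.002 in Express617.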
